A study of Mus musculus with 6 samples.

Results

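The tight junction genes and cadherins of primary mouse renal tubular epithelial cells (TECs) were compared between cells with and without knockdown of Sox9. The set was chosen by gene name and held the protein-coding claudins, Tjp1, Tjp3, Cgn, Ocln, Marveld2, F11r, Epcam and the numbered cadherins except Cdh16, which was counted as a tubule marker. It came to 46 of the 30315 genes in the table, namely 21 claudins, 18 cadherins, 3 plaque proteins and 4 other membrane proteins. The TECs came from kidneys of C57BL/6 mice and were grown to about 50% confluence. They were transfected with an siRNA against Sox9 (siSox9, 3 libraries) or with the negative control siRNA (siNC, 3 libraries) 12 h before hypoxia/reoxygenation (H/R), a culture model of renal ischemia-reperfusion injury. H/R consisted of 6 h in glucose-free medium at 1.0% O2 and 18 h of reoxygenation in complete medium. Both groups went through H/R, so the libraries compare knockdown with control siRNA in injured cells and hold no uninjured group. A single siRNA against Sox9 was sequenced, and the labels do not say whether replicates came from separate mice or cultures, so p-values measure the spread between these libraries, which may be technical.

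Tight junctions seal the space between neighbouring epithelial cells near their apical border. Claudins form the paracellular barrier and its ion-selective pores, occludin and tricellulin sit in the same strands, and zonula occludens proteins such as Tjp1 tie the strands to actin. Cadherins hold cells together in the adherens junction below, where beta-catenin and alpha-catenin link their tails to actin. In the kidney each nephron segment carries its own set of claudins, which sets what passes between its cells.

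The libraries held 23893197 to 25725743 reads, as recovered from the FPKM values (fragments per kilobase of exon, scaled to the mapped fragments of each library), so 1 read per kilobase equalled 0.0389 to 0.0419 FPKM. Sox9 measured 8.93, 8.61 and 9.07 FPKM in the siSox9 libraries and 25.7, 26.5 and 25.6 FPKM in the siNC libraries, which left 34.2% of the control level. The labelled cell type was checked against marker genes. Tubule epithelium markers summed to 3998 to 4162 FPKM in siSox9 and 3791 to 3991 FPKM in siNC, mostly through Krt8 and Krt18. All 8 tubule epithelium markers stood at 1 FPKM or more. Cdh16, the kidney-specific cadherin, was among them and was higher with siSox9, at 129.7 ± 0.424 against 100.9 ± 2.84 FPKM (SD, n = 3; log2 fold change 0.36, adjusted p = 0.000307). Markers of mature segments were mostly near 0: 2 of 8 proximal tubule markers in the table, 1 of 6 loop of Henle markers and 2 of 11 distal tubule and collecting duct markers reached 1 FPKM, and Slc34a1, Slc5a2, Hnf4a, Umod, Slc12a1, Slc12a3 and Aqp2 averaged under 0.1 FPKM over the 6 libraries. The 7 macrophage markers, mostly Lyz2, summed to 111.8 to 122 FPKM in siSox9 and 99.9 to 107 FPKM in siNC. The 5 podocyte markers summed to 12.5 to 13.9 against 18.8 to 19.5 FPKM, with the podocyte-defining Nphs1 at 0 in all 6 libraries.

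Promoter sequences are given for 5 members that passed the test, to set beside their levels: the neighbours Cldn1 and Cldn16, which were both lower with siSox9, the plaque gene Tjp1, and Cldn3 and Cldn6, which were higher. RefSeq (GRCm38.p6) gave a promoter for 34 of the 46 members, in 45 entries, and Cldn23, Cdh4, Cdh11 and Cdh17 had no entry. Each sequence holds the 250 bases before the RefSeq transcript start, 5′ to 3′ on the strand of the gene. Capitals mark matches on either strand to ACAATG or ACAAAG, both known as core motifs of SOX factors (ACAAAG also of TCF factors), to the E-box CACCTG, bound by Snail and Zeb factors, or to the GC box GGGCGG. None of these 4 motifs overlapped another in the sequences shown.
Cldn1 promoter (chr16:26371840-26372089, minus strand): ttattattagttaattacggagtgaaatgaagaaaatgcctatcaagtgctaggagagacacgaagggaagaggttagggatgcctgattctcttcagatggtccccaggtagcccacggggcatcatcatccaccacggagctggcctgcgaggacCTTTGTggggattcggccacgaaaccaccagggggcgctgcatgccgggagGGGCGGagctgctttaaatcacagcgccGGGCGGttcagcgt
Cldn16 promoter (chr16:26462885-26463134, plus strand): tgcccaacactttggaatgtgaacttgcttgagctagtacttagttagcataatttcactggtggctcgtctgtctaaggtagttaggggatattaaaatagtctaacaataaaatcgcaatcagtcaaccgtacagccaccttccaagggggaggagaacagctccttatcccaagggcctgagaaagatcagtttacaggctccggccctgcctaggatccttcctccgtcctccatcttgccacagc
Tjp1 promoter (chr7:65371245-65371494, minus strand; this start lies inside the span of the gene in the table): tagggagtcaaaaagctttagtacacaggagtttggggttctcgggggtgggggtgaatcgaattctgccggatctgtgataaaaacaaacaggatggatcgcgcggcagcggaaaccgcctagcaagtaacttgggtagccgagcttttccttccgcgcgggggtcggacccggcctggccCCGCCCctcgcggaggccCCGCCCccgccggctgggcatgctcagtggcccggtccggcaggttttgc
Cldn3 promoter (chr5:134985964-134986213, plus strand): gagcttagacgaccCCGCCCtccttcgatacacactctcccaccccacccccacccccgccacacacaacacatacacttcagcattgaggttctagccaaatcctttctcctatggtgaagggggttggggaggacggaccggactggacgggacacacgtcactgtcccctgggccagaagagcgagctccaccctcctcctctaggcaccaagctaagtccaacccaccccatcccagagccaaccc
Cldn6 promoter (chr17:23679115-23679364, plus strand): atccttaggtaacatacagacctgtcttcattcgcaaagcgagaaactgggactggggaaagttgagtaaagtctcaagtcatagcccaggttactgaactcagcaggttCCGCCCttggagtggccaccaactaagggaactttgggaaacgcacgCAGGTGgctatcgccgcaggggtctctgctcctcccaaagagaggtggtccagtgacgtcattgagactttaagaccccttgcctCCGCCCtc
The Cldn1 promoter held 1 ACAAAG match, 93 bases before the start, and 2 GC boxes, whereas the Cldn16 promoter held none of the motifs. ACAATG was present in 1 of the 45 entries of members (2.22%) and in 10.7% of all 32851 promoters of the same length. ACAAAG was present in 5 entries (11.1%) against 16.5% of all promoters, CACCTG in 9 (20%) against 17.2%, and GGGCGG in 25 (55.6%) against 32.7%. These matches describe letters only and say nothing of binding.

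In total, 25 members averaged 1 FPKM or more over the 6 libraries and entered the test, which was a limma fit of log2(FPKM + 1) on all 12009 such genes with Benjamini-Hochberg adjustment. Of these, 10 (40%) passed an adjusted p of 0.05, beside 30.4% of all genes tested. The direction was higher with siSox9 for 3 members (12%, against 12.8% of all genes) and lower for 7 (28%, against 17.6%), and the median log2 fold change was -0.06 for the members and -0.01 for all genes. Centring the libraries on their medians changed the split over all genes from 1532 higher and 2118 lower to 1959 higher and 1765 lower. The 3 siSox9 and 3 siNC values did not overlap for 13 of the 25 members (52%), compared with 46.3% of all genes tested. By class, 6 of 9 claudins tested passed, 1 of 3 plaque genes, 1 of 4 other membrane proteins and 2 of 9 cadherins. These shares were not tested against each other. Cldn19 and Cldn23, both called lower, averaged 0.925 and 0.923 FPKM in siSox9 and so entered the test through their siNC level. With a minimum of 5 FPKM, 3 of 18 members were higher and 4 lower, beside 1328 and 1376 of 7495 genes.

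**Figure D1:**
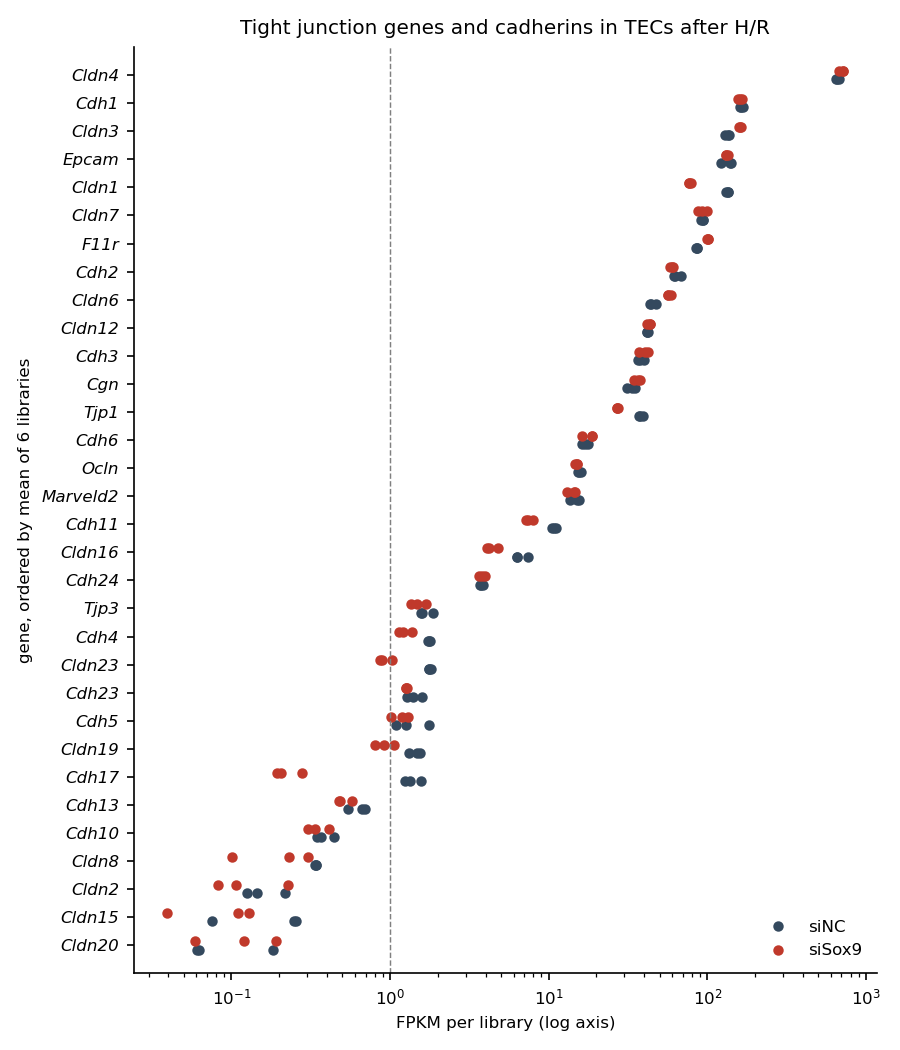
Levels in FPKM (log axis) of the 32 members averaging 0.1 FPKM or more, 1 dot per library, ordered by their mean, with siSox9 in red above siNC in dark blue and the dashed line at the 1 FPKM minimum of the test. Cldn4 lies highest at 649 to 721 FPKM, and Cldn1, Tjp1, Cdh11 and Cdh17 show siSox9 points left of siNC points.

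Transcripts of the claudins changed in both directions, while their summed level overlapped between the groups. Cldn1 fell from a high level, Cldn16, Cldn23 and Cldn19 fell from lower levels, and Cldn3 and Cldn6 rose. Cldn4 and Cldn7, which are abundant in distal nephron epithelium, and Cldn12 did not pass the test.

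Cldn1 (ENSMUSG00000022512, chr16:26356642-26371841), a claudin that tightens the barrier in many epithelia, measured 76.3, 76.5 and 78.4 FPKM in siSox9 and 134.6, 131.7 and 134.8 FPKM in siNC. All siSox9 libraries lay well below all siNC libraries, and the mean of 77.1 ± 1.13 FPKM was 57.6% of the 133.7 ± 1.71 FPKM in controls (log2 fold change -0.79, SE 0.027, adjusted p = 3.33e-05). In bulk RNA, fewer cells of a type and less RNA per cell cannot be told apart. Cldn16 (ENSMUSG00000038148, chr16:26463135-26482765) lies 91.3 kb from Cldn1 with no coding gene of the table between them and encodes a claudin for magnesium and calcium passage in the thick ascending limb. It measured 4.08, 4.80 and 4.21 FPKM in siSox9 (118 to 143 reads) and 6.32, 6.28 and 7.41 FPKM in siNC (178 to 216 reads). The groups did not overlap and siSox9 reached 65.4% of siNC (log2 fold change -0.52, SE 0.075, adjusted p = 0.00272).

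Cldn19 (ENSMUSG00000066058), the partner of Cldn16 in the thick ascending limb, measured 1.06, 0.804 and 0.913 FPKM in siSox9 and 1.48, 1.54 and 1.32 FPKM in siNC. Its siSox9 mean was 63.8% of siNC (log2 fold change -0.35, SE 0.079, adjusted p = 0.0155), but the call was lost without siSox9 replicate 2 (adjusted p = 0.0547) and without siNC replicate 2 (adjusted p = 0.0532), and also in the fit without a filter (adjusted p = 0.0508). Cldn23 (ENSMUSG00000055976) measured 0.862, 1.02 and 0.883 FPKM in siSox9 and 1.81, 1.75 and 1.76 FPKM in siNC, or 52% of siNC (log2 fold change -0.53, SE 0.065, adjusted p = 0.00135). For both genes the siSox9 mean lay under 1 FPKM, so they entered the test through their siNC level. Of other genes of the thick ascending limb, Umod and Slc12a1 averaged under 0.1 FPKM over the 6 libraries, and the summed loop of Henle markers, nearly all of them Cryab, were 252.8 to 265.4 FPKM in siSox9 and 230 to 248.6 FPKM in siNC. The podocyte sums given above also ran lower with siSox9, and their part in the falls was not tested.

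Cldn3 (ENSMUSG00000070473, chr5:134986214-134987472), a sealing claudin of tubular epithelium, measured 163.5, 158.6 and 160.9 FPKM in siSox9 and 137.8, 129.1 and 134.9 FPKM in siNC. Its mean was 161 ± 2.41 against 133.9 ± 4.41 FPKM (log2 fold change 0.26, SE 0.033, adjusted p = 0.0015). Cldn6 (ENSMUSG00000023906, chr17:23679365-23682446), best known from embryonic epithelia, measured 59.2, 56.8 and 56.8 FPKM in siSox9 and 47.2, 43.9 and 43.7 FPKM in siNC. Both genes were higher in every siSox9 library than in every siNC library, and Cldn6 reached 128.1% of the control level (log2 fold change 0.35, SE 0.039, adjusted p = 0.000858). Cldn9, 137 bases from Cldn6 on the opposite strand, averaged under 0.1 FPKM. The tubule marker Cdh16 was higher as well, at 128.4% of siNC, and so was Krt7 (128%). Of the tubule markers not called, Krt8 and Krt18 were at 101.6% and 105%, and Lhx1, Pax2, Pax8 and Krt19 at 80.9% to 97.1%. In a limma voom fit on recovered reads, chosen after the data were seen, Lhx1 and Pax2 passed as lower (adjusted p = 0.0316 and 0.0299). Krt8, Krt18, Pax8 and Krt19 did not pass in that fit. The macrophage sums given above were also higher, mostly through Lyz2 (116% of siNC), the 1 macrophage marker called. Adgre1, Cd68, Itgam and Cd14 were at 106.4% to 109.8%, and Ptprc and Csf1r at 90.2% and 97.1%. The part of these markers in the rises of Cldn3 and Cldn6 was not tested. Antisense genes overlap 3.18% of the Cldn3 exon bases (Wbscr25) and 2.11% of those of Cldn19 (Gm12927), and reads of the opposite strands cannot be told apart here.

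Cldn4, the most abundant claudin, measured 721, 712 and 676 FPKM in siSox9 and 677, 649 and 659.8 FPKM in siNC. One siSox9 library lay inside the range of the controls, and the difference did not pass (log2 fold change 0.09, 95% interval -0.00 to 0.17, adjusted p = 0.12), although a limma voom fit on recovered reads, chosen after the data were seen, gave an adjusted p of 0.0316. Cldn7 measured 93.4 ± 6.27 FPKM in siSox9 and 92.9 ± 1.67 FPKM in siNC, and the 95% interval of its log2 fold change ran from -0.11 to 0.12. Cldn12 measured 42.9 FPKM in siSox9 and 41.7 FPKM in siNC with overlapping libraries (95% interval -0.03 to 0.11). Cldn4 lies 39.3 kb from Cldn3 on chromosome 5, with no coding gene of the table between them.

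Summed over the 21 genes, claudin FPKM was 1142 ± 30 in siSox9 and 1120 ± 20.1 in siNC, with overlapping libraries. The 6 highest claudins made up 98.97% to 99.41% of that sum in every library. Cldn4 took 60.9% to 62.2% of it in siSox9 and 58.9% to 59.4% in siNC, Cldn3 took 13.9% to 14.5% against 11.7% to 12.1%, and Cldn1 took 6.53% to 7.06% against 11.8% to 12.0%. Cldn3 and Cldn1 thus stood at nearly equal levels in control cells, with a ratio of 0.980 to 1.02, and at a ratio of 2.05 to 2.14 after knockdown. Cldn1 lay above Cldn7 in all siNC libraries and below it in all siSox9 libraries. These shares and ratios follow from the levels above and were not tested on their own.

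**Figure D2:**
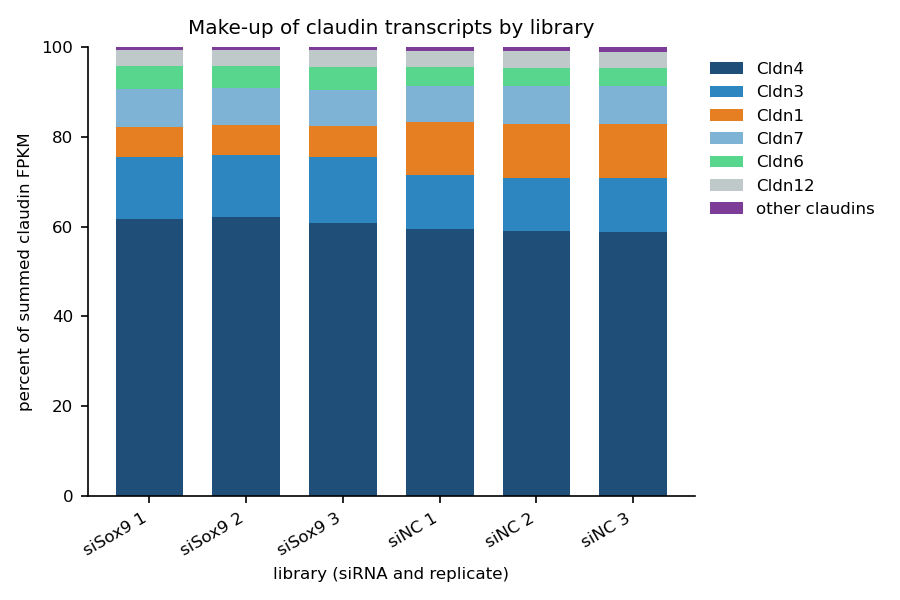
Share of the summed claudin FPKM (percent, bars from 0 to 100) taken by the 6 highest claudins and by all others in each of the 6 libraries. The Cldn1 band is thinner in the siSox9 libraries (6.53% to 7.06%) than in the siNC libraries (11.8% to 12.0%), and the Cldn3, Cldn4 and Cldn6 bands are thicker.

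The scaffold gene Tjp1 fell, F11r rose, and occludin, tricellulin, Epcam, Tjp3 and cingulin did not pass the test. Tjp1 (ENSMUSG00000030516, chr7:65296165-65527781), which encodes ZO-1 and joins claudins to actin, measured 26.9, 27.3 and 27.0 FPKM in siSox9 and 37.3, 37.7 and 39.2 FPKM in siNC. The groups were far apart, with siSox9 at 71% of siNC (27.1 ± 0.198 against 38.1 ± 1.03 FPKM; log2 fold change -0.48, SE 0.031, adjusted p = 0.000113). Tjp3, or ZO-3, was low at 1.35 to 1.69 FPKM in siSox9 and 1.57 to 1.86 FPKM in siNC (95% interval of the log2 fold change -0.28 to 0.09).

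F11r (ENSMUSG00000038235, chr1:171437535-171464603), the junctional adhesion molecule JAM-A, measured 100.7, 99.2 and 101.5 FPKM in siSox9 and 86.4, 86.0 and 84.6 FPKM in siNC. Every siSox9 library was above every siNC library, and the mean reached 117.3% of control (log2 fold change 0.23, SE 0.026, adjusted p = 0.00109). Cgn, cingulin, which binds ZO-1 and actomyosin, measured 37.8, 36.4 and 34.7 FPKM in siSox9 and 34.9, 33.6 and 31.1 FPKM in siNC. Its ranges overlapped slightly and it did not pass (log2 fold change 0.12, adjusted p = 0.103), but it passed without siNC replicate 1 (adjusted p = 0.0499) and on recovered reads (adjusted p = 0.0358). BC021767 holds 20.1% of the 50-base stretches of the Cgn transcript, so its level is uncertain.

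Ocln measured 14.99, 15.07 and 14.72 FPKM in siSox9 and 15.9, 15.2 and 15.5 FPKM in siNC. Although siSox9 lay below siNC in every library, the mean was 95.9% of control and did not pass (95% interval -0.13 to 0.02, adjusted p = 0.224). Marveld2, or tricellulin, is the next coding gene after Ocln, 43.2 kb away on chromosome 13, and measured 14.6, 14.5 and 13.0 FPKM in siSox9 against 13.6, 15.1 and 15.6 FPKM in siNC (95% interval -0.22 to 0.08). Epcam, an epithelial adhesion protein that binds claudins, measured 132.1 ± 1.98 FPKM in siSox9 and 134.6 ± 10.2 FPKM in siNC (95% interval -0.15 to 0.10).

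**Figure D3:**
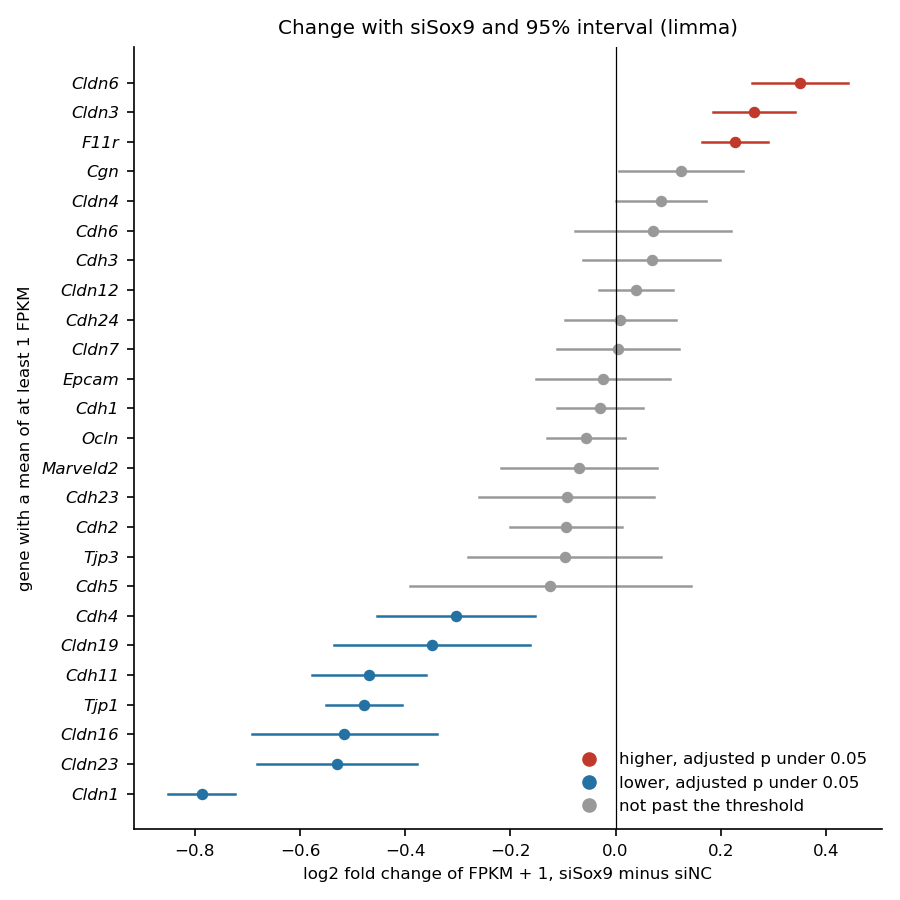
Change of the 25 tested members on the log2(FPKM + 1) scale, siSox9 minus siNC, with 95% intervals from limma; red marks members higher and blue members lower at an adjusted p under 0.05, and grey the rest. Cldn1 (-0.79) lies at the lower end and Cldn6 (0.35) at the upper end, and the intervals of Cdh1, Epcam, Cldn7 and Cdh24 span 0.

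Among the cadherins of the set, Cdh1, Cdh2, Cdh3 and Cdh6 did not pass the test, whereas Cdh11 and Cdh4 fell. Cdh16, which the set and its sums leave out, was higher with siSox9, as given above. Cdh1, or E-cadherin, the adhesion receptor of epithelial adherens junctions, measured 165.8, 159.8 and 155.9 FPKM in siSox9 and 168.2, 160.1 and 163.1 FPKM in siNC. These values were interleaved, and the 95% interval of the log2 fold change ran from -0.11 to 0.05 (adjusted p = 0.558). Cdh2, or N-cadherin, which proximal tubule cells also carry, measured 60.2, 61.1 and 57.8 FPKM in siSox9 and 67.9, 61.3 and 62.3 FPKM in siNC. The siSox9 values lay just below the siNC values but did not pass (log2 fold change -0.09, 95% interval -0.20 to 0.01, adjusted p = 0.162).

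Cdh1 exceeded Cdh2 by a ratio of 2.61 to 2.75 in siSox9 and 2.48 to 2.62 in siNC, which overlapped. Cdh3, or P-cadherin, measured 37.2 to 42.2 FPKM in siSox9 and 36.5 to 40.1 FPKM in siNC (95% interval -0.06 to 0.20). Cdh6, the kidney cadherin of the developing nephron, measured 16.1 to 18.8 FPKM in siSox9 and 16.2 to 17.7 FPKM in siNC (95% interval -0.08 to 0.22). Cdh1, Cdh2, Cdh3 and Cdh6 kept this order in all libraries and together with Cdh11 held most of the summed cadherin level, which was 294.3 ± 10.1 FPKM in siSox9 and 304.3 ± 10.99 FPKM in siNC.

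Cdh11 (ENSMUSG00000031673, chr8:102632095-102785642), a cadherin typical of mesenchymal cells, measured 8.01, 7.16 and 7.42 FPKM in siSox9 and 11.1, 10.5 and 10.9 FPKM in siNC. The groups were clearly separated, with siSox9 at 69.7% of siNC (log2 fold change -0.47, SE 0.046, adjusted p = 0.00055). Other genes hold 3.23% of the 50-base stretches of its transcript. The 7 fibroblast markers in the table summed to 6.97 to 8.52 FPKM in siSox9 and 8.69 to 9.76 FPKM in siNC. Only Col1a1 reached 1 FPKM and entered the limma test, at 85.4% of siNC (adjusted p = 0.118). In the limma voom fit on reads, chosen after the data were seen, Col1a1 passed (adjusted p = 0.0312). The part of these markers in the Cdh11 level was not tested. Cdh4 (ENSMUSG00000000305, chr2:179442431-179899373), or R-cadherin, first known from retina, measured 1.37, 1.145 and 1.21 FPKM in siSox9 (210 to 255 reads) and 1.74, 1.79 and 1.76 FPKM in siNC (313 to 318 reads). It fell to 70.4% of siNC (log2 fold change -0.30, SE 0.064, adjusted p = 0.0119). Cdh24, Cdh23 and Cdh5 were low and did not pass, with adjusted p of 0.904, 0.357 and 0.449. Of these, Cdh5, the cadherin of endothelium, measured 1.02 to 1.29 FPKM in siSox9 and 1.09 to 1.75 FPKM in siNC, while no endothelial marker averaged 1 FPKM. The endothelial marker Emcn averaged 0.873 FPKM and was at 61.4% of siNC, with groups that did not overlap. Emcn passed as lower in limma without a filter (adjusted p = 0.0331) and in limma voom on reads (adjusted p = 0.000741). The other endothelial markers passed in neither fit.

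**Figure D4:**
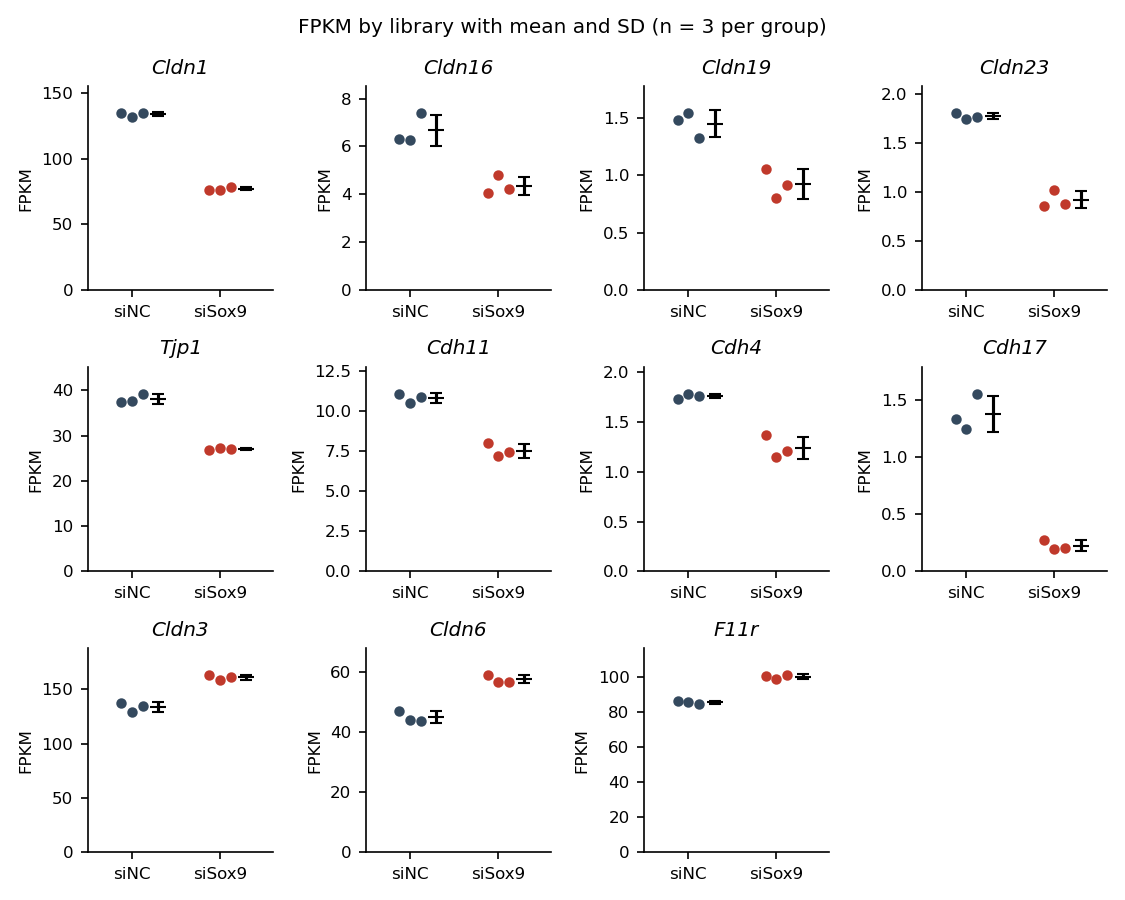
FPKM per library (dots) with mean and SD (bars, n = 3 per group) for the 10 members that passed the test and for Cdh17, each on its own linear axis from 0. In the first 8 panels siSox9 lies below siNC, and in Cldn3, Cldn6 and F11r it lies above.

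The other 21 members had means under 1 FPKM, 7 of them between 0.1 and 1 FPKM and 14 under 0.1 FPKM. Cdh17, or LI-cadherin, known from intestine and liver epithelium, stood out among them. It measured 0.278, 0.194 and 0.206 FPKM in siSox9 and 1.33, 1.25 and 1.56 FPKM in siNC, which came to 32, 22 and 22 reads against 148, 135 and 173 reads. All siSox9 libraries lay far below all siNC libraries, at 16.4% of their mean. In limma without a filter, where 9.6% of 28122 genes were called, Cdh17 was the 1 of these 21 members to pass (adjusted p = 0.00182). In limma voom on recovered reads, which called 22.9% of 19988 genes with at least 10 reads, it was the 1 of 12 low members to pass (log2 fold change of reads -2.60, SE 0.224, adjusted p = 5.85e-08).

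Cldn2, the cation and water pore of the proximal tubule, was represented by 7 to 18 reads in siSox9 and 10 to 18 reads in siNC. Cldn8, a claudin of the collecting duct, had 14, 6 and 17 reads in siSox9 and 20, 19 and 20 reads in siNC, a separation that did not pass (adjusted p = 0.158 on reads). Cdh13, or T-cadherin, which is anchored in the membrane without a cytoplasmic tail, measured 0.473 to 0.575 FPKM in siSox9 and 0.541 to 0.693 FPKM in siNC and did not pass either (adjusted p = 0.101). Cdh10 had 78 to 105 reads in siSox9 and 84 to 110 reads in siNC, and Cldn15 and Cldn20 had at most 13 reads in any library. Cldn5, the claudin of endothelial junctions, had 0 reads in siSox9 and at most 2 reads in siNC. On reads, Cldn2, Cldn15 and Cldn20 did not pass (adjusted p = 0.655, 0.328 and 0.902).

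Among 18 further adherens junction genes, 16 were tested and 7 passed, 6 of them higher and 1 lower, with a median log2 fold change of 0.08. The count was 3 without siSox9 replicate 2 and 4 without siNC replicate 3. Nectin4, a nectin adhesion receptor, rose from 16.8 ± 1.07 to 20.1 ± 0.746 FPKM (log2 fold change 0.25, adjusted p = 0.0109), and Jup, plakoglobin, rose from 70.8 ± 3.10 to 83.2 ± 2.28 FPKM (0.23, adjusted p = 0.00558). Plekha7, which anchors microtubules at the adherens junction, rose by 0.17 (adjusted p = 0.0123), while Ctnnd2, delta-catenin, fell to 71.2% of siNC (adjusted p = 0.0266), a call lost in 8 of 14 alternatives, including each left-out library but siNC replicate 2 (adjusted p up to 0.0914). Of the other catenins, named after their values were seen, beta-catenin (Ctnnb1) was higher at 110.3% of siNC (adjusted p = 0.0112) and alpha-catenin (Ctnna1) at 109.7% (adjusted p = 0.0158), while p120-catenin (Ctnnd1) was at 97.2% and did not pass (adjusted p = 0.492). Without siSox9 replicate 2 neither Ctnnb1 nor Ctnna1 passed (adjusted p = 0.0534 and 0.0632), and Ctnna1 did not pass without siNC replicate 3 (adjusted p = 0.0635).

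Of 26 other tight junction and polarity genes in the table, 21 were tested and 9 passed, 5 higher and 4 lower, with a median of -0.01. PAR proteins and atypical protein kinase C form a polarity complex that places the junction. Pard6b measured 31.7, 30.9 and 28.6 FPKM in siSox9 and 17.8, 17.1 and 18.5 FPKM in siNC (log2 fold change 0.74, SE 0.048, adjusted p = 0.000119). Prkci, the kinase of the complex, measured 61.6, 60.5 and 60.5 FPKM in siSox9 and 89.0, 88.3 and 91.2 FPKM in siNC (log2 fold change -0.55, SE 0.027, adjusted p = 6.06e-05). Pard3, a PAR scaffold named after its values were seen, was at 120.9% of siNC (adjusted p = 0.00751), and Prkcz, the other atypical kinase, at 98.8% did not pass (adjusted p = 0.872). Pard6b and Prkci were separated without overlap, as was Cgnl1, paracingulin, at 82.2 ± 5.53 against 59.3 ± 5.04 FPKM (log2 fold change 0.47, adjusted p = 0.00322). Amotl2 rose by 0.25 (adjusted p = 0.00529), and Mpdz, a scaffold of tight junctions, fell by 0.24 (adjusted p = 0.0107). Pard6a fell by 0.29 on the log2 scale (adjusted p = 0.0423), a call lost in 11 of 14 alternatives, including each left-out library but siNC replicate 1 (adjusted p up to 0.13).

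For desmosomes, 3 of 10 tested genes passed. Dsg2, a desmosomal cadherin, fell by 0.30 (14.6 ± 0.582 against 18.2 ± 0.135 FPKM, adjusted p = 0.00132), Pkp3, plakophilin 3, fell by 0.24 (adjusted p = 0.00502), and Perp rose by 0.20 (adjusted p = 0.00193). Of 19 regulators of cadherin and claudin genes, 10 were tested and 4 passed, all lower, with a median of -0.14; without siSox9 replicate 2, or without siNC replicate 3, the count was 2. Esrp1, a splicing factor of epithelial cells, fell to 71.5% of siNC (log2 fold change -0.45, adjusted p = 0.000216), and Elf3, an epithelial ETS factor, to 73.4% (-0.41, adjusted p = 0.00172). Klf4, a regulator of epithelial differentiation, fell by 0.32 (adjusted p = 0.025), a call lost in 5 of 14 alternatives, among them leaving out siSox9 replicate 1 or 2 or siNC replicate 1 or 3 (adjusted p up to 0.0854). Snai2, a repressor of Cdh1 that was named after its values were seen, fell by 0.27 (adjusted p = 0.0255), a call lost in 8 of 14 alternatives, among them leaving out siSox9 replicate 2 or 3 or siNC replicate 1 or 3 (adjusted p up to 0.0839). The shares called were 43.8%, 42.9%, 30% and 40% in these 4 lists, against 30.4% of all genes.

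**Figure D5:**
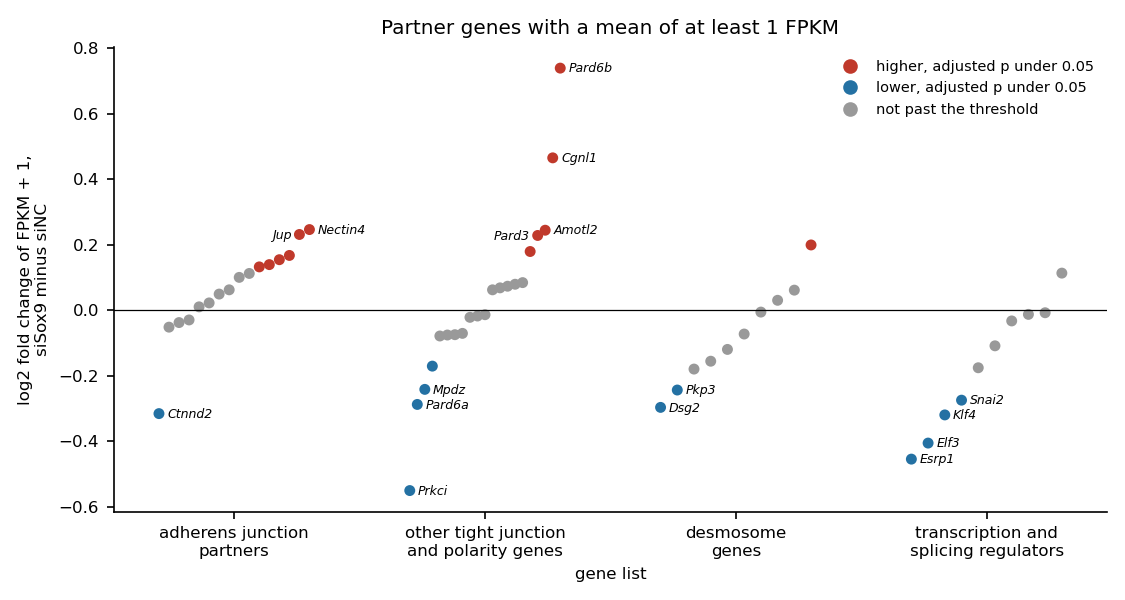
Log2 fold change of FPKM + 1 (siSox9 minus siNC) of the tested genes in the 4 partner lists, with red for higher, blue for lower and grey for genes not past an adjusted p of 0.05. Pard6b (0.74) and Prkci (-0.55) lie at the ends of the polarity list, and the called regulators all lie below 0.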

How the data were processed

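RNA-Seq of 3 siSox9 and 3 siNC libraries of TECs after H/R was read from 1 table, in which the authors deposited FPKM per gene. The submitters' processing notes name HISAT2 2.1.0, Bowtie2 2.2.3, TopHat2 and mm9 without roles; gene positions in the table matched GRCm38 (GENCODE M21) for 93.3% of the 30246 genes found there. The strand setting and the counter were not given in the sources used here. Of all values of the genes found in GENCODE M21, zeros included, 93.3% came out as whole reads (within 0.02 reads), which gave read numbers and depth. The intervals printed come from limma and cover the spread between libraries.

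FPKM was tested as log2(FPKM + 1) with limma 3.58.1 (R 4.3.3; lmFit, eBayes with a trend), with no covariate, on genes averaging 1 FPKM or more, and p-values were adjusted by the Benjamini-Hochberg method over all of them. The scale understates changes of low genes. The code was tested on simulated data. Figures and summaries used Python 3.11.15, numpy 2.4.6, pandas 2.3.3 and matplotlib 3.10.9. Alternatives were a pseudocount of 0.1, no filter, a minimum of 5 FPKM, TPM, centring on the median, quantile normalization, limma voom on recovered reads, a replicate block and leaving out each library; voom on genes with at least 10 reads was added after the data were seen.

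Named genes were Sox9, members at 1 FPKM or more, members between 0.1 and 1 FPKM, and the 3 largest rises and falls per partner list. Members and lists were chosen with earlier results of these data known, and 1 gene that the naming rule also takes in is not reported here. No library was a copy of another: the mean chi-square per gene was 1.89 to 6.87 within groups and 20.5 to 23.3 between groups, where sampling alone gives 1.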

Additional observations from a re-analysis of the deposited data

How the results depend on the processing

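The call was unchanged in 663 of 707 values of single genes under the alternatives, and no called value reversed; 39 lost the threshold and 5 passed it. Cdh24, Cldn7, Epcam and Prkcz, which were not called, changed sign in 2, 3, 4 and 5 alternatives. Cdh1, also not called, ran from -0.068 to -0.000 without changing sign. The count of members past the threshold was 7 to 13 under all settings and 9 to 11 when 1 library was left out. With a minimum of 5 FPKM, 7 of 18 members passed beside 2704 of 7495 genes, and with TPM 10 of 25 beside 2549 of 12009. Without a filter, 10 of 46 members passed beside 2700 of 28122 genes (9.6%). On recovered reads with a minimum of 10, 13 of 37 passed beside 4574 of 19988 (22.9%). A minimum of 5 FPKM left 4 lower members of 18 tested, since fewer genes were tested, and 1376 lower genes in all. In that fit on reads with a minimum of 10, 5 of 37 members were higher, beside 1793 of 19988 genes, and 5 desmosome genes passed. With TPM 1332 genes were lower; the cause was not tested. Without a filter 4 adherens junction partners and 2 regulators passed, and with a minimum of 5 FPKM 2 regulators. Leaving out 1 library gave 2424 to 3654 called genes and 944 to 1565 higher genes, 3 to 6 adherens junction partners and 2 to 4 regulators; the lowest count of each came without siSox9 replicate 2 (2424, 944, 3 and 2).

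Replicates shared only a number: the correlations of same-numbered deviations were 0.0649, -0.0504 and 0.00784, and not every sample correlated best with its own number. A replicate block gave 11 members (4 higher, 7 lower, Cgn with an adjusted p of 0.0362) and 3262 genes. Among the genes and markers named in the text it changed only 3 calls. These were of Cgn, of Pard6a (adjusted p = 0.0788) and of the tubule marker Lhx1, which passed as lower (adjusted p = 0.0434). Few reads stood behind the 14 members under 0.1 FPKM; Cdh26, for example, had 6, 8 and 14 reads in siSox9 and 1, 7 and 2 in siNC (log2 fold change of reads 1.58, 95% interval 0.167 to 2.998, adjusted p = 0.106).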
